A study of Chlamydomonas reinhardtii with 12 samples.

Results

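The genes described here are 10 components of the carbon-concentrating mechanism of the unicellular green alga Chlamydomonas reinhardtii: the carbonic anhydrases CAH1 to CAH5, the LCIB family (LCIB, LCIC, LCID and LCIE) and EPYC1, the linker protein of the pyrenoid. They were chosen as a list of gene identifiers, and all 10 of 10 were found among the 17693 genes of the table. Their messenger RNA was measured in 12 libraries of poly(A) RNA, 3 biological replicates for each of 4 groups: vip1-1 cells in high light, wild-type cells in high light, vip1-1 cells in control light and wild-type cells in control light. The vip1-1 strain is deficient in inositol pyrophosphates, a class of phosphate-rich signalling molecules, and the labels give CC-1690 as the cell line of both strains. Control cultures received 50 µmol m-2 s-1 of light and high light cultures 1500 µmol m-2 s-1, all in liquid acetate-containing TAP medium at 25 ºC. The duration of the high light, the nature of the vip1-1 mutation and the CO2 supply are not given in the sources used here, and the transcript of the mutated gene was not analysed here. The study asked what part inositol pyrophosphates have in the response to high light.

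The carbon-concentrating mechanism pumps bicarbonate into the chloroplast and turns it into CO2 beside Rubisco, which is packed into the pyrenoid, a dense body inside the chloroplast. Carbonic anhydrases interconvert CO2 and bicarbonate at successive compartments on this route, the LCIB and LCIC proteins surround the pyrenoid when CO2 is limiting and limit the loss of CO2, and EPYC1 binds Rubisco molecules to each other. Many of these genes are known to be induced when CO2 is scarce.

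Values are FPKM as deposited, a unit that counts sequenced fragments relative to transcript length and library size, so levels can be compared between genes per length. Sequencing depth is unknown. Across libraries the FPKM total ranged from 651369 to 767459, and between 10054 and 12194 genes reached 1 FPKM. Replicates of a group had Pearson's r of log2(FPKM + 1) across genes from 0.931 to 0.988, and libraries of different groups from 0.779 to 0.956. Differences were tested on the log2(FPKM + 1) scale with limma in a fit of 12575 genes and all 12 libraries, with p-values adjusted over those genes by the Benjamini-Hochberg method and a threshold of 0.05. This scale understates fold changes of weakly expressed genes. The fit gives each gene 1 spread shared by the 4 groups. Replicates that vary in 1 group therefore widen the SE and interval in every comparison. The median tested gene was itself displaced, by 0.38 for the light effect in vip1-1, 0.39 for the light effect in wild type, -0.28 for vip1-1 against wild type in high light and -0.29 for vip1-1 against wild type in control light, so differences are also given relative to that median. In a culture, fewer cells carrying a transcript and less transcript per cell cannot be told apart.

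**Figure D1:**
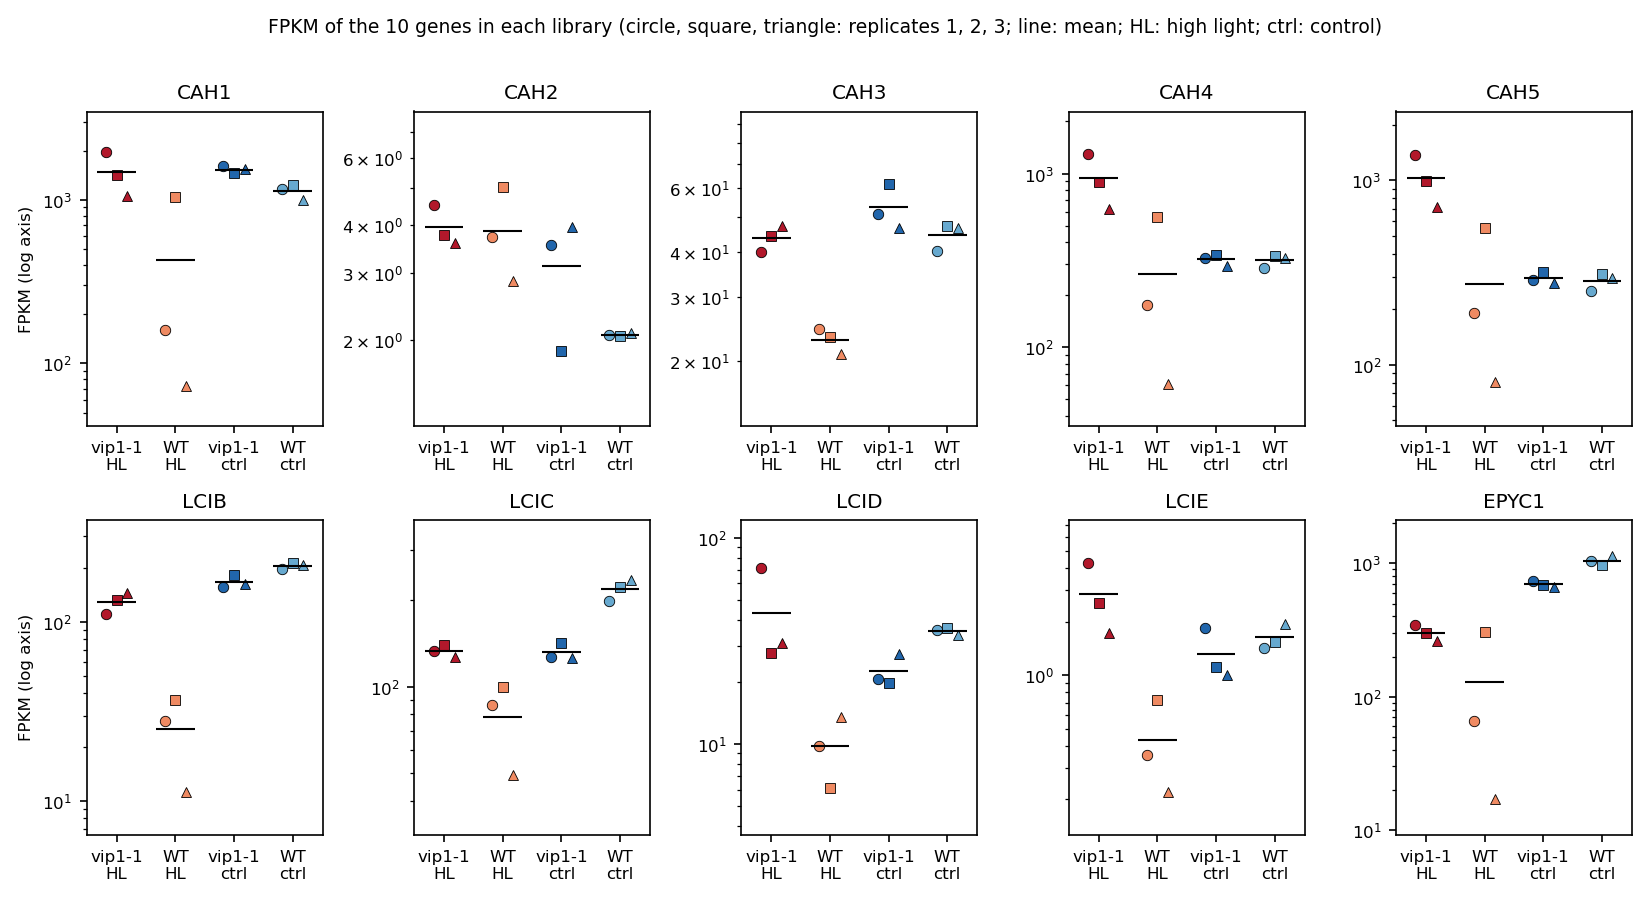
FPKM on a log axis for each of the 10 genes, with 1 point per library, the shape giving the replicate and the line the group mean. In 8 of the 10 genes, CAH2 and EPYC1 being the exceptions, all 3 vip1-1 high light libraries lie above all 3 wild-type high light libraries.

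In high light, 9 of the 10 genes were higher in vip1-1 than in wild type, and none was lower. Over all tested genes 12.1% were higher and 34.4% lower in the same comparison. In 8 of the 10 every vip1-1 high light library was above every wild-type one, as in 12.8% of all tested genes, and in none was the order the opposite, as in 34.7% of all. The median log2 difference of the 10 genes was 2.02, against -0.28 for all tested genes, and 6 of the 10 differences lay above the 99th percentile of all genes. The gene that did not pass the test was CAH2. After median centring the same 9 were higher, against 22.9% of all genes higher and 19.3% lower. They fell to 5 (CAH3, CAH5, LCIB, LCID and LCIE) when the spread was estimated from the 6 high light libraries alone. Over all tested genes 3538 passed in that fit in either direction, against 5838 in the full fit.

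In control light 1 of the 10 (LCIC) was lower in vip1-1 and none was higher, against 26.0% lower and 6.39% higher over all tested genes. After median centring none was lower and CAH3 was higher (0.58, limma adjusted p 0.0167), against 10.1% of all genes lower and 14.5% higher. All vip1-1 control libraries were below all wild-type ones in 4 of the 10 (LCIB, LCIC, LCID and EPYC1), as in 48.1% of all genes. The same 4 were lower with the spread estimated from the 6 control libraries alone (adjusted p 0.0174 in LCIB, 0.000954 in LCIC, 0.00610 in LCID and 0.00140 in EPYC1). In that fit 5 of the 10 passed, CAH1 being higher, as did 6856 of all tested genes in either direction (4079 in the full fit). Passing there therefore did not set these genes apart from the other tested genes. High light lowered 7 of the 10 genes in wild type (13.7% of all tested genes were lowered) and raised 1 (44.7% of all). After median centring 7 were lowered (26.9% of all) and none was raised (23.4% of all). The high light libraries of wild type were all below their controls in 6 of the 10 (16.8% of all genes) and all above in 1, CAH2 (49.8% of all). In vip1-1 high light lowered none of the 10 (4.09% of all tested genes were lowered) and raised 2 (37.4% of all). After median centring it lowered 1, CAH3 (10.8% of all), and raised none (6.98% of all). Its high light libraries were all above the controls in 3 of the 10, CAH4, CAH5 and LCID (49.1% of all genes), and all below in 2, LCIB and EPYC1 (5.77% of all). The interaction, obtained by subtracting the wild-type light effect from that of vip1-1, passed the threshold in 4 of the 10, all positive and all in the LCIB family. Its value lay above the 99th percentile of all genes in 6 of the 10. Among these were CAH1, CAH4, CAH5 and EPYC1, which did not pass. Over all tested genes 3.82% had a positive and 4.89% a negative interaction past the threshold, and after median centring, where the same 4 passed, 3.63% and 5.40%. The comparisons share libraries, so their counts are not independent of each other.

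**Figure D2:**
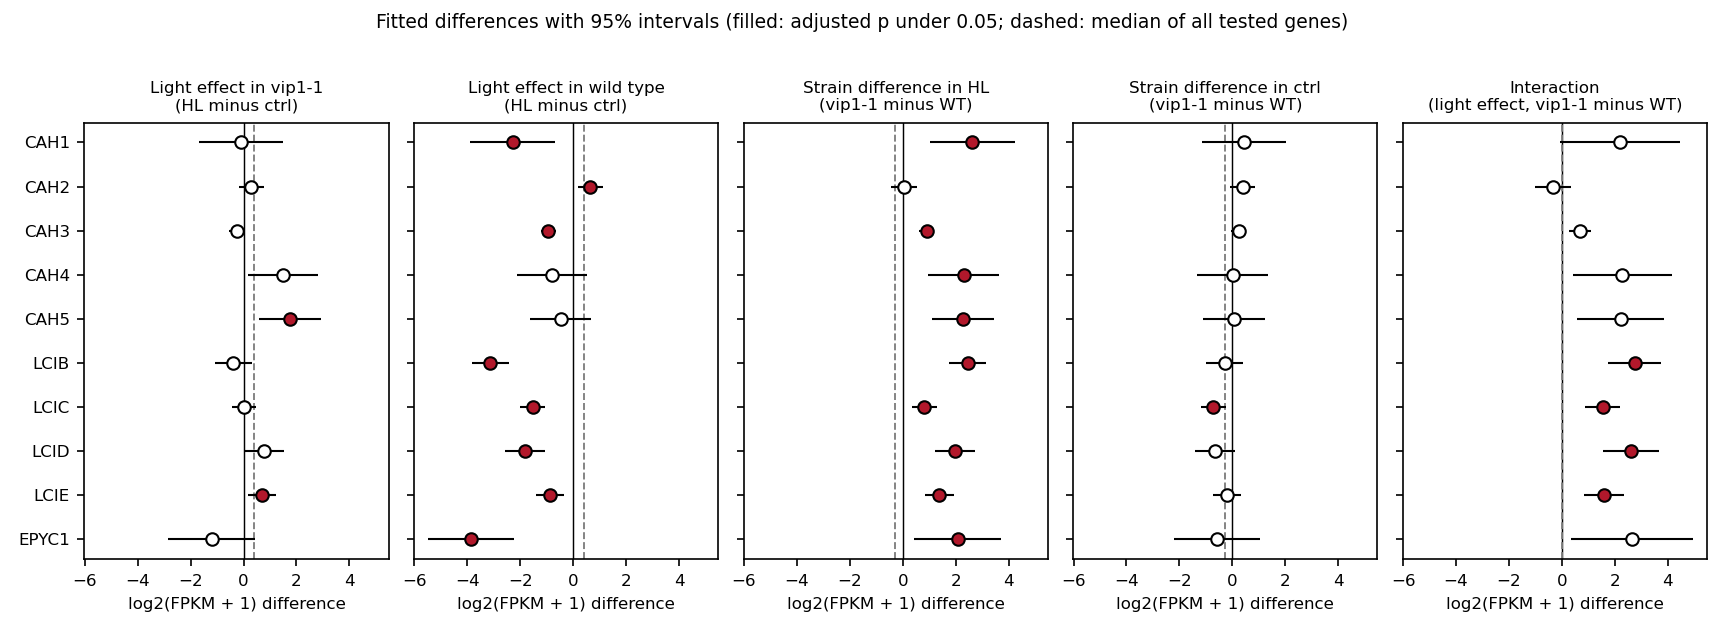
Fitted log2(FPKM + 1) differences with 95% intervals for the 10 genes in the 5 comparisons, filled where the adjusted p was under 0.05, with the median of all tested genes as a dashed line. In the third panel the differences of 9 genes are filled and lie between 0.82 and 2.63, while in the fourth panel only that of LCIC is filled.

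The order of levels depended on the group. In vip1-1 high light CAH1 was the highest of the 10, at a mean of 1482 FPKM, followed by CAH5 at 1025 and CAH4 at 940 FPKM. EPYC1 came next at 303 FPKM, then LCIC at 133, LCIB at 129, CAH3 at 43.8, LCID at 43.3, CAH2 at 3.96 and LCIE at 2.85 FPKM. In this order the libraries of CAH1 and CAH5, CAH5 and CAH4, LCIC and LCIB, CAH3 and LCID, and CAH2 and LCIE overlapped. In wild-type control CAH1 at 1131 and EPYC1 at 1047 FPKM led, followed by CAH4 at 316, CAH5 at 285, LCIC at 219, LCIB at 206, CAH3 at 44.6, LCID at 35.3, CAH2 at 2.07 and LCIE at 1.63 FPKM. Neighbours whose libraries overlapped in wild-type control were CAH1 and EPYC1, CAH4 and CAH5, and LCIC and LCIB. EPYC1, second in that group, was thus below both mitochondrial carbonic anhydrases in all 3 vip1-1 high light libraries.

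CAH1 (Cre04.g223100_4532.v6.1) encodes the periplasmic carbonic anhydrase that is the classical marker of acclimation to low CO2. The vip1-1 high light libraries, in the order of replicates 1, 2 and 3, held 1967, 1428 and 1051 FPKM of CAH1, and the wild-type ones 159, 1047 and 72.9 FPKM. In control light the values were 1609, 1454 and 1544 FPKM in vip1-1, and 1167, 1231 and 995 FPKM in wild type. All vip1-1 libraries were high, and in wild type 2 of the 3 high light libraries were low while replicate 2 was at the control level. In high light vip1-1 exceeded wild type by 2.63 on the log2 scale (SE 0.72, limma adjusted p 0.0124), which is 2.91 above the median gene. The light effect in wild type was -2.28 (SE 0.72, limma adjusted p 0.0193), and in vip1-1 it was -0.10 (SE 0.72, limma adjusted p 0.923). The interaction of 2.19 did not pass the threshold (SE 1.02, limma adjusted p 0.210). Without wild-type high light replicate 2 it was 3.28 (adjusted p 0.00209). Over all fits that left out a library the interaction was 1.36 to 3.28, with an adjusted p of up to 0.355. The strain difference in high light was 1.81 to 3.72 over the same fits, with an adjusted p of up to 0.0485. The light effect in wild type did not pass without wild-type control replicate 2 (adjusted p 0.0518), wild-type high light replicate 1 (adjusted p 0.0660) or wild-type high light replicate 3 (-1.46, adjusted p 0.0671). In control light the difference between the strains was 0.45 (limma adjusted p 0.665), although all 3 vip1-1 libraries were above all 3 wild-type libraries, as in 14.9% of tested genes. With the 6 control libraries alone that difference passed the threshold (adjusted p 0.00758). The light effect in wild type did not pass it with the 6 wild-type libraries alone (adjusted p 0.0672), nor did the strain difference in high light with the 6 high light libraries alone (adjusted p 0.0766).

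CAH2 (Cre04.g223050_4532.v6.1) encodes a second periplasmic carbonic anhydrase, known for weak expression. The libraries of vip1-1 in high light held 4.51, 3.77 and 3.59 FPKM, those of wild type 3.72, 5.03 and 2.84 FPKM. The control values were 3.55, 1.87 and 3.94 FPKM in vip1-1 and 2.06, 2.05 and 2.09 FPKM in wild type. The high light libraries of the strains overlapped, with a log2 difference of 0.05 (95% interval -0.43 to 0.52, limma adjusted p 0.875). In control light vip1-1 minus wild type was 0.39 (limma adjusted p 0.190). That difference passed the threshold after quantile normalization (0.82, adjusted p 0.0380) and without vip1-1 control replicate 2 (0.63, adjusted p 0.0364). CAH2 was the only one of the 10 raised by light in wild type, by 0.64 (SE 0.21, limma adjusted p 0.0250), which is 0.25 above the median gene. After median centring the rise was 0.22 and did not pass the threshold (adjusted p 0.516), nor did it without wild-type high light replicate 1 or 2 or without any 1 of the wild-type control replicates (adjusted p 0.0551 to 0.0843). CAH1 and CAH2 encode similar proteins, and how reads shared by similar genes were assigned is not given in the sources used here.

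CAH3 (Cre09.g415700_4532.v6.1) encodes the carbonic anhydrase of the thylakoid lumen, which releases CO2 from bicarbonate inside the membranes that cross the pyrenoid. Its values were 39.9, 44.3 and 47.2 FPKM in vip1-1 high light, against 24.5, 23.4 and 20.9 FPKM in wild-type high light. In control light they were 50.9, 61.5 and 46.6 FPKM in vip1-1 and 40.1, 47.2 and 46.6 FPKM in wild type. The wild-type high light libraries stood apart from the other 9. CAH3 fell in wild type by 0.93 on the log2 scale (SE 0.13, limma adjusted p 0.000227), and in high light it was 0.90 higher in vip1-1 than in wild type (SE 0.13, limma adjusted p 0.000380). The light effect in vip1-1 was -0.26 (limma adjusted p 0.133), and it passed the threshold with median centring at -0.69 (adjusted p 0.0132) and with quantile normalization at -0.49 (adjusted p 0.0293). The interaction of 0.67 did not pass the threshold (SE 0.19, limma adjusted p 0.0531). It passed without the filter on low values (adjusted p 0.0488) and after quantile normalization (0.95, adjusted p 0.0106). It also passed when vip1-1 high light replicate 1, wild-type high light replicate 2 or vip1-1 control replicate 2 was left out (adjusted p 0.0434 to 0.0465).

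CAH4 (Cre05.g248400_4532.v6.1) and CAH5 (Cre05.g248450_4532.v6.1) encode mitochondrial carbonic anhydrases whose proteins are nearly identical. CAH4 had 1305, 895 and 620 FPKM in vip1-1 high light, against 174, 559 and 60.8 FPKM in wild-type high light. Its control values were 325, 338 and 294 FPKM in vip1-1 and 286, 335 and 327 FPKM in wild type. All vip1-1 high light libraries exceeded every other library, whereas the wild-type high light libraries lay on both sides of their controls. CAH5 followed the same course, with 1365, 996 and 713 FPKM in vip1-1 high light and 192, 550 and 80.1 FPKM in wild-type high light. In control light CAH5 was at 290, 318 and 277 FPKM in vip1-1, against 251, 309 and 295 FPKM in wild type.

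These were the members with the largest positive light effect in vip1-1. CAH5 rose there by 1.75 on the log2 scale (SE 0.53, limma adjusted p 0.0241), which is 1.37 above the median gene. The call ended without vip1-1 high light replicate 1 or 2 or any 1 of the vip1-1 control replicates (adjusted p 0.0508 to 0.0632). The light effect of CAH4 was 1.49 and did not pass the threshold (SE 0.60, limma adjusted p 0.0686), while the summed FPKM of the pair rose by 1.62 (limma adjusted p 0.0408). CAH4 passed when wild-type high light replicate 2 (adjusted p 0.00873) or 3 (adjusted p 0.0135) was left out, and with the 6 vip1-1 libraries alone (adjusted p 0.0149). After median centring the light effect of CAH5 in vip1-1 was 1.32 (adjusted p 0.143), and after quantile normalization it was 1.87 (adjusted p 0.0506). In wild type neither passed the threshold, with light effects of -0.80 for CAH4 (95% interval -2.13 to 0.54) and -0.47 for CAH5 (95% interval -1.64 to 0.69). Without wild-type high light replicate 2 both fell there, CAH4 by 1.61 (adjusted p 0.00662) and CAH5 by 1.19 (adjusted p 0.0141). Leaving out wild-type high light replicate 3 instead gave light effects of -0.017 for CAH4 (adjusted p 0.977) and 0.19 for CAH5 (adjusted p 0.692). In high light vip1-1 exceeded wild type by 2.30 in CAH4 (SE 0.60, limma adjusted p 0.00982) and by 2.27 in CAH5 (SE 0.53, limma adjusted p 0.00525). With wild-type high light replicate 3 left out, the difference in CAH4 was 1.52 (adjusted p 0.0190). In control light the strain differences were 0.01 and 0.05, with 95% intervals of -1.32 to 1.35 for CAH4 and -1.12 to 1.22 for CAH5.

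LCIB (Cre10.g452800_4532.v6.1) encodes a chloroplast protein needed for growth at air levels of CO2. It had 111, 133 and 144 FPKM in vip1-1 high light and 28.0, 36.6 and 11.2 FPKM in wild-type high light. In control light it had 157, 183 and 164 FPKM in vip1-1 and 197, 213 and 208 FPKM in wild type. Every wild-type high light library was below all others by a wide gap. The mean in wild-type high light was 25.2 ± 12.9 FPKM, against 206 ± 7.90 FPKM in wild-type control (SD, n = 3 each), an 8.15-fold higher level in the control. The light effect was -3.12 in wild type (SE 0.32, limma adjusted p 3.68e-05) and -0.38 in vip1-1 (SE 0.32, limma adjusted p 0.358). With wild-type high light replicate 3 left out, that of vip1-1 passed the threshold at the same value (adjusted p 0.0474). The interaction was 2.74 (SE 0.46, limma adjusted p 0.00774), above 99.8% of all tested genes. In high light vip1-1 exceeded wild type by 2.45 (SE 0.32, limma adjusted p 0.000198).

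LCIC (Cre06.g307500_4532.v6.1) encodes the partner with which LCIB forms a complex. Its values were 133, 140 and 127 FPKM in vip1-1 high light and 86.4, 99.4 and 49.3 FPKM in wild-type high light. In control light they were 127, 142 and 126 FPKM in vip1-1 and 199, 223 and 235 FPKM in wild type. The vip1-1 values were alike in both light levels, between the control and high light values of wild type. LCIC was the member that differed between the strains in control light, where vip1-1 minus wild type was -0.73 (SE 0.21, limma adjusted p 0.0243) and -0.44 after subtraction of the median gene. After median centring that difference was -0.38 (adjusted p 0.323), and leaving out wild-type control replicate 2 or 3, or vip1-1 control replicate 1 or 3, also ended the call (adjusted p 0.0720 to 0.0779). LCIC fell by 1.53 in wild-type high light (SE 0.21, limma adjusted p 0.000197), the light effect in vip1-1 was 0.02 (95% interval -0.45 to 0.49), and the interaction was 1.54 (SE 0.30, limma adjusted p 0.0135). In high light vip1-1 exceeded wild type by 0.82 (SE 0.21, limma adjusted p 0.00957), and by 0.52 when wild-type high light replicate 3 was left out.

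LCID (Cre04.g222800_4532.v6.1) and LCIE (Cre04.g223250_4532.v6.1) encode relatives of LCIB. LCID had 71.5, 27.5 and 30.7 FPKM in vip1-1 high light, against 9.74, 6.15 and 13.5 FPKM in wild-type high light. Its control values were 20.7, 19.7 and 27.2 FPKM in vip1-1 and 35.8, 36.5 and 33.7 FPKM in wild type. In vip1-1 all high light libraries were above the controls, and in wild type all were below. The light effect was 0.79 in vip1-1 (SE 0.34, limma adjusted p 0.0838) and -1.81 in wild type (SE 0.34, limma adjusted p 0.00116), with an interaction of 2.60 (SE 0.48, limma adjusted p 0.0112). The light effect in vip1-1 was 0.37 with vip1-1 high light replicate 1 left out (adjusted p 0.258) and 1.04 with vip1-1 high light replicate 2 left out (adjusted p 0.0451). The high light level in vip1-1 exceeded that in wild type by 1.96 (SE 0.34, limma adjusted p 0.00102).

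LCIE was the lowest of the 10 and reached 1 FPKM in 8 of the 12 libraries, whereas the other 9 genes did so in all 12. The vip1-1 high light libraries had 4.27, 2.55 and 1.73 FPKM of it, against 0.36, 0.72 and 0.22 FPKM in wild type under the same light. In control light it was at 1.85, 1.12 and 0.998 FPKM in vip1-1 and at 1.42, 1.53 and 1.95 FPKM in wild type. As in LCID, the wild-type high light libraries were the lowest. The means in high light were 2.85 ± 1.30 FPKM in vip1-1 and 0.43 ± 0.26 FPKM in wild type (SD, n = 3 each), a 6.59-fold difference in FPKM. On the log2(FPKM + 1) scale it was 1.39 (SE 0.24, limma adjusted p 0.000994). LCIE fell by 0.89 with light in wild type (SE 0.24, limma adjusted p 0.00901) and rose by 0.70 in vip1-1 (SE 0.24, limma adjusted p 0.0395). That rise was 0.27 after median centring (adjusted p 0.554) and ended in 7 of the 12 fits that left out a library (vip1-1 high light replicates 1 and 2, wild-type high light replicate 1, vip1-1 control replicates 2 and 3, and wild-type control replicates 1 and 2), with an adjusted p of up to 0.116 and a value of 0.44 in the fit that left out vip1-1 high light replicate 1. The interaction was 1.58 (SE 0.34, limma adjusted p 0.0190). Without wild-type control replicate 3, wild-type high light replicate 1, vip1-1 control replicate 2 or vip1-1 control replicate 3 it did not pass the threshold (adjusted p 0.0553, 0.0523, 0.0501 and 0.0555).

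EPYC1 (Cre10.g436550_4532.v6.1) encodes the repeat protein that joins Rubisco into the matrix of the pyrenoid. In high light it had 342, 303 and 264 FPKM in vip1-1, against 66.2, 307 and 17.0 FPKM in wild type. In control light it stood at 734, 688 and 670.4 FPKM in vip1-1 and at 1036, 968 and 1138 FPKM in wild type. EPYC1 was below its controls in every high light library of both strains, and wild-type high light replicate 2 lay within the range of vip1-1 high light. Light lowered EPYC1 by 3.86 in wild type (SE 0.74, limma adjusted p 0.00125). In vip1-1 the light effect was -1.21 and did not pass the threshold (SE 0.74, limma adjusted p 0.206), but with the 6 vip1-1 libraries alone it passed (adjusted p 0.00976), as it did without wild-type high light replicate 2 (adjusted p 0.0249) or 3 (adjusted p 0.0439). In high light vip1-1 exceeded wild type by 2.07 (SE 0.74, limma adjusted p 0.0397). This was the least stable of the 9 calls. It ended in 11 of the 12 fits that left out a library, wild-type high light replicate 2 being the exception, with an adjusted p of up to 0.1004. Leaving out wild-type high light replicate 3 gave a difference of 1.07, and leaving out replicate 2 of that group gave 3.12. The interaction of 2.66 did not pass the threshold (SE 1.04, limma adjusted p 0.143), and without wild-type high light replicate 2 it was 3.70 (adjusted p 0.00402). Over all fits that left out a library the interaction was 1.66 to 3.70, with an adjusted p of up to 0.243.

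The genes differed in how much the wild-type high light replicates varied. In that group 5 of the 10 genes (CAH1, CAH4, CAH5, LCIB and EPYC1) had a spread above the 90th percentile of all tested genes, whereas 1 did in vip1-1 control (CAH2) and none did in vip1-1 high light or wild-type control. The highest library exceeded the lowest 18.1-fold in EPYC1, 14.4-fold in CAH1, 9.20-fold in CAH4, 6.86-fold in CAH5 and 3.26-fold in LCIB. In CAH3 this ratio was 1.17. Replicate 2 held the highest value for 8 of the 10 genes and replicate 3 the lowest for 9. Over all tested genes replicate 2 was highest in 23.5% and lowest in 59.9%. Replicate 3 was lowest in 21.5% and highest in 49.5% of all tested genes. CAH3 had its highest value in replicate 1, and LCID had its lowest value in replicate 2 and its highest in replicate 3. Against the mean of wild-type control, CAH4 in wild-type high light replicate 2 stood at a ratio of 1.77 and CAH5 at 1.93, while LCIB stood at 0.178 and LCID at 0.174 in the same library. What set this library apart was not tested.

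**Figure D3:**
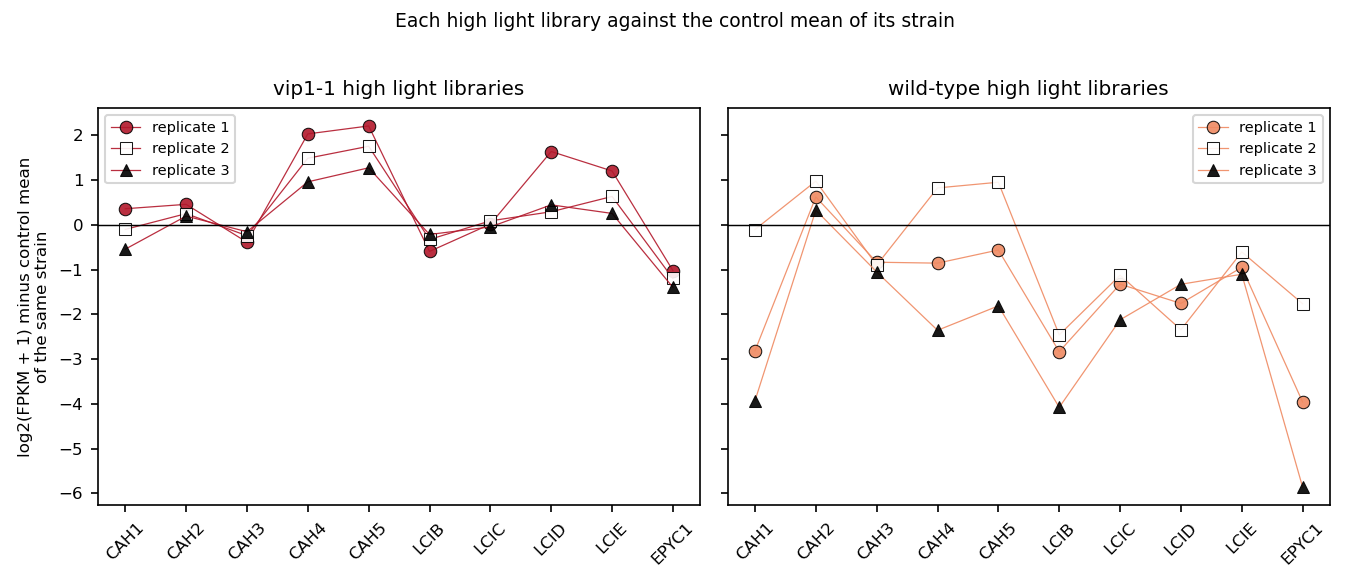
Difference of log2(FPKM + 1) between each high light library and the mean of the control libraries of its strain, for the 10 genes, with vip1-1 left and wild type right. In CAH1 the vip1-1 libraries lie between -0.55 and 0.36 and the wild-type ones between -3.93 and -0.11, and in EPYC1 between -1.40 and -1.02 in vip1-1 and between -5.86 and -1.76 in wild type.

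Leaving out wild-type high light replicate 2 moved the interaction most. The number of the 10 genes past the threshold then went up to 9, the same 4 of the LCIB family with CAH1, CAH3, CAH4, CAH5 and EPYC1. Over all tested genes the count of interactions past the threshold was 1866 without that library, against 1095 with it. In the 11 other fits that left out a library, between 3 and 5 of the 10 passed, and between 497 and 1545 of all tested genes.

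Ratios between related genes within a library do not depend on its scaling while FPKM are well above 1. CAH2 (at most 5.03 FPKM) and LCIE (at most 4.27 FPKM) do not meet this, so tests of ratios with them depend on scaling and the added 1. Log2 ratios of (FPKM + 1) were compared by exact two-sided permutation tests stratified by strain or light level. The smallest possible p was 0.005, with adjustment over 8 tests. The FPKM ratio of LCIB to LCIC was 0.833, 0.954 and 1.13 in vip1-1 high light and 0.324, 0.368 and 0.228 in wild-type high light. In control light it was 1.24, 1.29 and 1.30 in vip1-1 and 0.991, 0.953 and 0.885 in wild type. All 3 wild-type high light libraries had a lower ratio than the other 9. The log2 ratio differed by -0.998 between high light and control (exact permutation p = 0.005, adjusted p 0.0133) and 1.03 higher in vip1-1 than in wild type (exact permutation p = 0.005, adjusted p 0.0133). In both cases the p is the smallest that the test can give.

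The ratio of CAH4 to CAH5 was 0.956, 0.898 and 0.870 in vip1-1 high light, 0.906, 1.02 and 0.758 in wild-type high light. With control light it was 1.12, 1.06 and 1.06 in vip1-1, and 1.14, 1.09 and 1.11 in wild type. Every high light library was below every control library, with a mean log2 change of -0.29 (exact permutation p = 0.005, adjusted p 0.0133). Between the strains the mean log2 difference was -0.0046 (exact permutation p = 0.945). How reads shared by CAH4 and CAH5 were assigned is not given in the sources used here, and its part in this ratio was not tested.

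In FPKM, CAH1 exceeded CAH2 by a factor of 293 to 436 in vip1-1 high light and 25.6 to 208 in wild-type high light. In control light the factor was 391 to 776 in vip1-1 and 476 to 600 in wild type. For wild type the mean log2 ratio of (FPKM + 1) went from 8.52 under control conditions to 5.60 after light treatment. For vip1-1 it went from 8.58 to 8.18, and the libraries of the light levels overlapped. Averaged over the strains, this ratio was lower in high light by 1.66 on the log2 scale (mean change -1.66, exact permutation p = 0.015, adjusted p 0.0300). This call ended in 6 of the 12 sets that left out a library, among them each wild-type control replicate (adjusted p 0.136) and vip1-1 control replicate 2 or vip1-1 high light replicate 2 (adjusted p 0.05) or 3 (adjusted p 0.06). Its strain difference of 1.32 did not pass after adjustment (exact permutation p = 0.05, adjusted p 0.0800), nor did the ratio of LCID to LCIE change past the threshold with light (-0.41, exact permutation p = 0.230) or strain (0.06, exact permutation p = 0.870).

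**Figure D4:**
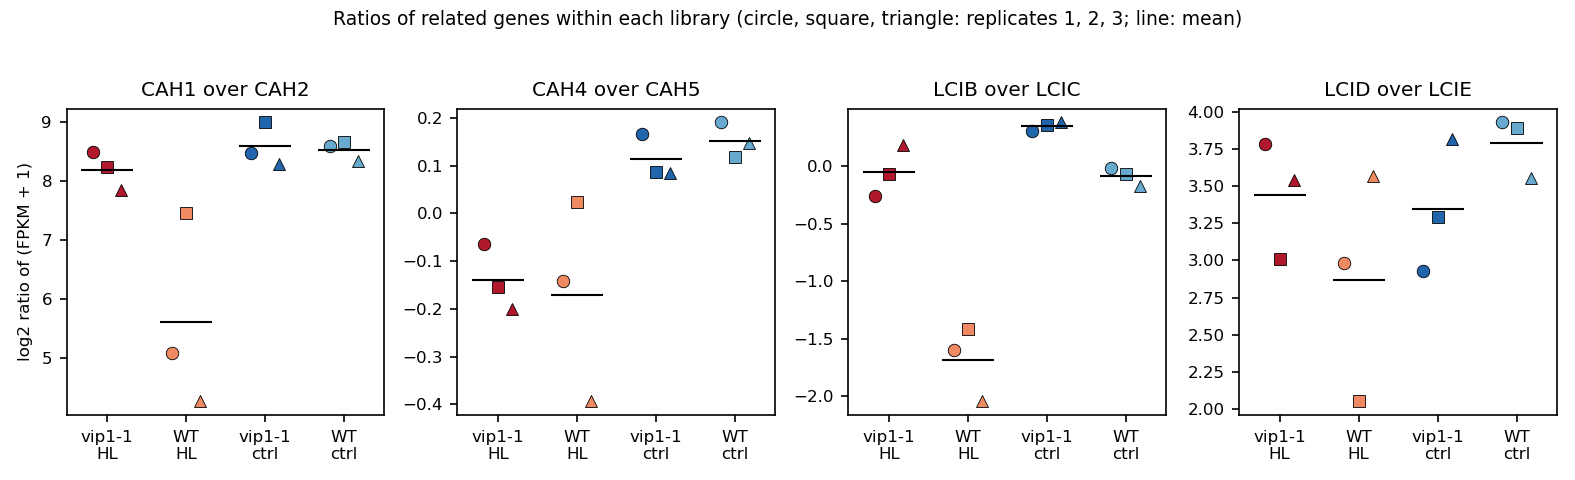
Log2 ratio of (FPKM + 1) between related genes in each library, with the line at the group mean and axes that differ between panels. For LCIB over LCIC the wild-type high light group has a mean of -1.68, against -0.05 in vip1-1 high light, and for CAH4 over CAH5 all high light libraries lie below the control libraries.

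In the RefSeq annotation of assembly v5.5, which matched all 10 identifiers, 4 of the genes lie close together on chromosome 4. LCID is followed by CAH2 with 3 genes between them, CAH1 is the next gene after CAH2, and LCIE follows CAH1 with 3 genes between them. CAH5 and CAH4 are direct neighbours on chromosome 5. On chromosome 4 the neighbouring CAH1 and CAH2 had mean levels of 1482 and 3.96 FPKM in vip1-1 high light, and the light effect in wild type was -2.28 in CAH1 and 0.64 in CAH2. Of the 5 other genes tested between LCID and LCIE, none was higher and 1 was lower in vip1-1 than in wild type in high light, and with light in wild type 2 rose and 3 fell.

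The genes whose profile over the 12 libraries was most like that of CAH1, LCIB and EPYC1 were found by the root mean square difference of log2(FPKM + 1) after centring each gene on its own mean. The closest to EPYC1 was Cre01.g010900_4532.v6.1 (0.28), with high light means of 1664 FPKM in vip1-1 and 433 FPKM in wild type, and control means of 2721 FPKM in vip1-1 and 3652 FPKM in wild type. The closest to LCIB was Cre11.g476750_4532.v6.1 (0.38), with means of 328, 86.4, 569 and 528 FPKM in the same order of groups. CAH1 had no match as close, its nearest being Cre03.g158000_4532.v6.1 (0.47), with means of 106, 19.0, 87.4 and 60.7 FPKM. These 3 genes carry no name in the sources used here.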

How the data were processed

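Poly(A) RNA of 12 cultures was sequenced as stranded libraries, per the labels. The authors deposited 1 table of FPKM values for 17693 genes. HISAT2 and StringTie are named in the submitters' processing notes, and versions, options and genome build are not given in the sources used here. In 6218 genes, including 3 of the 10 members (CAH1, LCIC and LCIE), values have more than 6 decimals, and how they were formed is not given. No whole-read steps were found in low values (most common ratio between libraries at most 2.02% of 198 genes), so depth is unknown and precision rests on 3 replicates, which the labels call biological.

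Genes with at least 1 FPKM in at least 3 libraries were tested (12575) on log2(FPKM + 1) with limma 3.58.1 in R 4.3.3, using 4 group means and a variance trend. The fit and the permutation test were tested on simulated data. Figures used matplotlib 3.10.9. The members, lists and tests were chosen with earlier results of these data known. The naming rule covered all members and the 3 genes most like each of CAH1, LCIB and EPYC1. The text names all members but, of the like genes, only the nearest to each. Other genes of the pathway and the mutated gene, also in the plan, are not analysed here because no source used here pairs their names with identifiers. Protein and promoter sequences were not used here. Alternatives were another pseudocount, no filter, median centring, quantile normalization, a replicate block, only the groups compared, summed pairs and leaving out each library.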

Additional observations from a re-analysis of the deposited data

Results flagged for a closer look

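The light effect differed between the strains past the threshold of the interaction test in 4 of the 10 genes, all of the LCIB family (limma, adjusted over 12575 genes). The interactions of EPYC1 (2.66), CAH4 (2.29), CAH5 (2.22) and CAH1 (2.19) exceeded those of LCIC and LCIE but had larger SE and did not pass. When wild-type high light replicate 2 was left out, 9 of the 10 passed, as did 1866 of all tested genes. The light effect of LCIB was -0.38 in vip1-1 and -3.12 in wild type, an interaction of 2.74 (adjusted p 0.00774), with every vip1-1 library above every wild-type library in high light. That of LCIC was 0.02 in vip1-1 and -1.53 in wild type, an interaction of 1.54 (limma adjusted p 0.0135). That of LCID was 0.79 in vip1-1 and -1.81 in wild type, an interaction of 2.60 (limma adjusted p 0.0112). That of LCIE was 0.70 in vip1-1 and -0.89 in wild type, an interaction of 1.58 (limma adjusted p 0.0190). The interactions of LCIB, LCIC and LCID passed the threshold in all 18 alternatives tried, and that of LCIE in 13 of 18.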

How the results depend on the processing

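The replicate block changed the call of none of the 10 genes in the 5 comparisons. Between libraries with the same replicate number, deviations from group means had r between -0.49 and 0.48. The best match was under the own number in 7 of 36 cases. Such correlations cannot tell whether cultures with the same number were grown or processed together. The main fit took the samples as unpaired. With the replicate block 4722 genes passed for the light effect in vip1-1, 7112 for that in wild type, 5535 and 3637 for the strains in high and control light, and 744 for the interaction. The number of genes past the threshold for the light effect in vip1-1 was 5223, with 2241 after median centring and 1901 after quantile normalization. With only the 2 groups compared it was 3538 for the strains in high light (5838 in the full fit) and 6856 in control light (4079 in the full fit). Leaving out single libraries gave 2993 to 5970 genes for the light effect in vip1-1, 2590 to 4781 for the strains in control light and 497 to 1866 for the interaction. Median centring changed the share of higher genes among those called from 90.2% to 39.2% for the light effect in vip1-1, 76.5% to 46.5% for that in wild type, 26.0% to 54.3% for the strains in high light and 19.7% to 59.0% in control light.

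Of the 10 genes, the number called for the light effect in vip1-1 was 2, and 1 with a pseudocount of 0.1, without a filter, after median centring or after quantile normalization (in both scalings CAH3, lowered), and 0 to 5 over the fits that left out a library. For the strains in control light it was 1 (4079 of all tested genes), with 2 under quantile normalization (LCIC lower and CAH2 higher, 3110 of all). With only the 2 groups compared it was 5 (6856 of all), and without single libraries 0 to 2 (2590 to 4781 genes). For the strains in high light it was 9 (5838 of all tested genes), with 5 from the high light libraries alone (3538 of all). Without single libraries it was 8 to 9 (4558 to 6375 genes). For the interaction it was 4 (1095 of all tested genes), with 3 to 9 without single libraries (497 to 1866 genes). Without wild-type high light replicate 2 or 3 the light effects in vip1-1 kept their values (1.49 in CAH4, -1.21 in EPYC1, -0.38 in LCIB). There only the estimate of the shared spread and the adjustment changed. The cause of the other changes was not tested.

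Sign changes occurred only in differences that did not pass the threshold in the full fit, except that of CAH2 in wild type when summed with CAH1. After median centring the light effect in vip1-1 became -0.13 in CAH2 and -0.41 in LCIC, and the strain difference in control light 0.052 in LCIB and 0.15 in LCIE. Under quantile normalization the light effect in vip1-1 was 0.27 in CAH1 and -0.10 in CAH2, and the strain difference in control light -0.16 in CAH4, -0.11 in CAH5 and 0.22 in LCIE. Summing pairs, which lets the more abundant gene decide, gave -0.10, -2.26 and 2.16 in place of CAH2 for the light effect in vip1-1, in wild type and the interaction, and -0.19 in place of LCIC for the light effect in vip1-1. Over the fits without single libraries the light effect in vip1-1 was -0.32 to 0.13 in CAH1 and -0.017 to 0.075 in LCIC, the light effect of CAH5 in wild type -1.19 to 0.19, the strain difference of CAH2 in high light -0.11 to 0.21, and the strain differences in control light -0.056 to 0.072 in CAH4 and -0.036 to 0.11 in CAH5. The strain difference of the log2 ratio was -0.060 to 0.044 for CAH4 over CAH5 and -0.14 to 0.24 for LCID over LCIE, and -0.38 for LCID over LCIE with a pseudocount of 0.1.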

Other observations

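Together the 10 genes took 0.441% to 0.745% of the FPKM total of a library in vip1-1 high light and 0.0505% to 0.391% in wild-type high light. In control light their share was 0.411% to 0.434% in vip1-1 and 0.426% to 0.454% in wild type. CAH1 made up 35.0% to 36.8% of that sum in the vip1-1 and 21.4% to 39.8% in the wild-type libraries from high light, against 45.3% to 49.0% in the vip1-1 and 30.3% to 36.6% in the wild-type controls.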
